A study of Macaca mulatta with 4 samples.

Results

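The RNA of 9 heat shock proteins and chaperones was followed in blood mononuclear cells of rhesus macaques in a study of transplanted islets made from human chemically induced pluripotent stem cells. The genes were chosen by name: HSPA8, HSPH1, HSPE1, HSPD1, HSP90AA1, HSP90AB1, DNAJB1, DNAJA1 and HSPA5. All 9 were found among the 15354 gene rows of the deposited tables. Levels were taken for each cell type label in each library.

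Chaperones bind proteins that are not folded and help them fold, assemble or be handed on for degradation. In the cytosol, HSP70 proteins hold short stretches of a client. J-domain proteins such as DNAJB1 and DNAJA1 deliver the client and start the ATP cycle, and HSPH1, a member of the HSP110 family, resets it by nucleotide exchange. HSPA8 is the constitutive HSP70. HSP90 acts on late folding states of kinases and steroid receptors, with HSP90AA1 as the inducible and HSP90AB1 as the constitutive form. HSPD1 (HSP60) and its lid HSPE1 (HSP10) fold proteins inside mitochondria, and HSPA5 (BiP) is the HSP70 of the endoplasmic reticulum (ER). The transcription factor HSF1 drives several of these genes under heat and other protein stress, and the unfolded protein response drives HSPA5. In lymphocytes, chaperone synthesis also accompanies growth and activation.

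The design has 4 libraries of peripheral blood mononuclear cells, 1 per group. The cells were profiled to look for a response of the recipient's immune system to the islets. The Post-IS library was taken after immunosuppression and ahead of the transplant. Blood drawn 4 weeks after the transplant gave the 4 wpt library, and blood drawn 8 weeks after it the 8 wpt library. The Pre-IS library comes from before immunosuppression. The labels give no drug, animal, age, sex or strain, and they do not say whether one animal gave all libraries or whether animals were pooled. Drug treatment and time since the transplant cannot be told apart in the 4 wpt and 8 wpt libraries.

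There is no replicate, so no difference between groups was tested. A level is the number of unique molecular identifiers (UMIs) of a gene per 1000000 UMIs of the cell class in that library (CPM), with an exact Poisson 95% interval in parentheses where given. Ratios have exact conditional 95% intervals. Both kinds cover counting error only, and they can be too narrow where UMIs of a gene sit together in few cells. Fewer cells with a transcript and less transcript per cell are not separated by a class level. A UMI stands for a captured molecule and was not divided by gene length, so levels of different genes are set side by side only as captured UMIs. Several of these genes have near-identical processed copies in the human genome. Counts of HSPA8, HSP90AA1, HSP90AB1, HSPD1 and HSPE1 are uncertain to the extent that reads were shared with such copies. No cell class lacks chaperones, so a level set by free RNA could not be taken from one.

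The libraries held 1928 cells in Pre-IS, 603 in Post-IS, 1882 at 4 wpt and 2580 at 8 wpt. The median depth was 1563, 1168, 3551 and 1877 UMIs per cell in the same order. The Post-IS library stood apart in size and in its share of ribosomal protein UMIs (17.0%, against 22.1% to 23.6% in the others). Its mitochondrial share was 1.36%, against 0.653% to 0.948%. Within classes the ribosomal share did not go one way. Post-IS T cells had 30.4%, against 27.1% to 28.8% in the other libraries. CD14+ monocytes had 14.1%, against 16.8% to 17.2%, and MS4A7+ monocytes 10.8%, against 9.65% to 13.9%. Pairs of libraries shared 0 to 12 cell barcodes. Cell labels are the authors' own. The 6 classes with at least 50 cells in 1 library or more were T cells, NK cells, B cells, naive B cells, CD14+ monocytes and MS4A7+ monocytes, which made 20 units of class and library. NK and B cells were too few in Post-IS, and naive B cells in Post-IS and at 4 wpt. Markers fitted the labels of T cells and monocytes. The 5 T cell markers summed to 2874 to 3470.5 CPM in T cells, against at most 662 CPM in the other 5 classes. The 5 CD14+ monocyte markers summed to 20189.5 to 23299 CPM in CD14+ monocytes, against 973 to 2519.9 CPM in MS4A7+ monocytes. Cells labelled T also held NK markers, which summed to 1765 CPM in Pre-IS, 682 in Post-IS, 1169.6 at 4 wpt and 2011 at 8 wpt. Their part in the T cell comparisons was not tested. Naive B cells were not marked off from B cells by their list, at 3899 and 3939.7 CPM, against 2874 to 4396 CPM in B cells. Class labels may have been derived from these same counts, so differences between classes are descriptions.

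The constitutive cytosolic HSP70, HSPA8, gave more UMIs than any of the other 8 genes in each of the 20 units. In T cells it stood at 1187 CPM in the Pre-IS library, 1385 in Post-IS, 1565 at 4 wpt and 1412 at 8 wpt. In NK cells it stood at 1047 CPM in Pre-IS, 1592 at 4 wpt and 1379.5 at 8 wpt. Pre-IS was the lowest library in both of these classes and 4 wpt the highest. In B cells HSPA8 stood at 659 CPM in Pre-IS, 1053 at 4 wpt and 1006 at 8 wpt. CD14+ monocytes had HSPA8 levels of 586 CPM in the Pre-IS library, 702 in Post-IS, 801 at 4 wpt and 713 at 8 wpt. For MS4A7+ monocytes the levels were 369.8 CPM in Pre-IS, 965 in Post-IS, 682 at 4 wpt and 789.6 at 8 wpt. Pre-IS was again the lowest in these 3 classes, and in MS4A7+ monocytes its interval (260.4 to 509.8 CPM) lay below those of the 3 later libraries. Naive B cells were level, at 995 CPM at 8 wpt and 983 CPM in Pre-IS.

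The cytosolic partners of HSP70 were far less abundant in UMIs than HSPA8. HSPH1, the nucleotide exchange factor, stood in T cells at 26.7 CPM in the Pre-IS library, 41.7 in Post-IS, 51.4 at 4 wpt and 64.9 at 8 wpt. In CD14+ monocytes it stood at 16.4 CPM in the Pre-IS library, 60.2 in Post-IS, 33.2 at 4 wpt and 43.3 at 8 wpt, the Pre-IS level resting on 9 UMIs. HSPH1 was higher in NK cells, at 77.9 CPM in Pre-IS, 101 at 4 wpt and 94.5 at 8 wpt, and in MS4A7+ monocytes, at 70.0 CPM in Pre-IS, 116 in Post-IS, 86.0 at 4 wpt and 144 at 8 wpt. The Pre-IS library was the lowest for HSPH1 in each of these classes. The J-domain protein DNAJB1 stood in T cells at 34.8 CPM in the Pre-IS library, 34.8 in Post-IS, 42.6 at 4 wpt and 50.1 at 8 wpt, with intervals that overlapped between neighbouring times. In CD14+ monocytes DNAJB1 stood at 43.8 CPM in the Pre-IS library, 73.6 in Post-IS, 36.6 at 4 wpt and 48.1 at 8 wpt, the Post-IS library being the highest. DNAJA1, the other J-domain protein, varied little. It stood in T cells at 73.3 CPM in the Pre-IS library, 104 in Post-IS, 96.8 at 4 wpt and 104 at 8 wpt, and over the 20 units it ranged 2.37-fold, between 63.0 and 149 CPM.

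The inducible HSP90AA1 and the constitutive HSP90AB1 did not follow each other in T and NK cells. HSP90AA1 stood in T cells at 313 CPM in the Pre-IS library, 438 in Post-IS, 416 at 4 wpt and 436 at 8 wpt, and in NK cells at 438 CPM in Pre-IS, 617 at 4 wpt and 635 at 8 wpt. Pre-IS was the lowest library in both classes. HSP90AB1 stood in T cells at 753 CPM in the Pre-IS library, 974 in Post-IS, 702 at 4 wpt and 749 at 8 wpt, and in NK cells at 784 CPM in Pre-IS, 699 at 4 wpt and 742 at 8 wpt. Here the Pre-IS library was not the lowest, and the Post-IS T cells, with 140 UMIs, were the highest. In CD14+ monocytes HSP90AB1 stood at 431 CPM in the Pre-IS library, 633 in Post-IS, 471 at 4 wpt and 502 at 8 wpt, and in B cells at 604 CPM in Pre-IS, 750.2 at 4 wpt and 812 at 8 wpt. HSP90AA1 stood in CD14+ monocytes at 356 CPM in the Pre-IS library, 515 in Post-IS, 474 at 4 wpt and 471 at 8 wpt, and in B cells at 324 CPM in Pre-IS, 441 at 4 wpt and 446 at 8 wpt. Both HSP90 genes of these classes were lowest in Pre-IS, and both were highest in Post-IS in CD14+ monocytes and at 8 wpt in B cells.

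The mitochondrial pair was captured unevenly, HSPE1 giving more UMIs than HSPD1 in every unit. HSPE1 stood in T cells at 269 CPM in the Pre-IS library, 327 in Post-IS, 330.2 at 4 wpt and 339 at 8 wpt, and HSPD1 at 72.6 CPM in the Pre-IS library, 111 in Post-IS, 130.2 at 4 wpt and 94.4 at 8 wpt. In B cells HSPD1 stood at 60.4 CPM in Pre-IS, 187 at 4 wpt and 89.2 at 8 wpt. Its 4 wpt value was the highest of the 20 units. The genes lie side by side with no gene between them in the reference annotation (assembly T2T-MMU8v2.0), the layout known from human, where they share a promoter region. HSPA5, the ER member, stood in T cells at 65.9 CPM in the Pre-IS library, 97.4 in Post-IS, 95.5 at 4 wpt and 88.6 at 8 wpt. In CD14+ monocytes HSPA5 stood at 52.9 CPM in the Pre-IS library, 163 in Post-IS, 104 at 4 wpt and 105 at 8 wpt, the Post-IS interval lying above that of Pre-IS. Its lowest unit was naive B cells in Pre-IS, at 37.8 CPM, and its highest MS4A7+ monocytes in Post-IS, at 181 CPM.

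**Figure D1:**
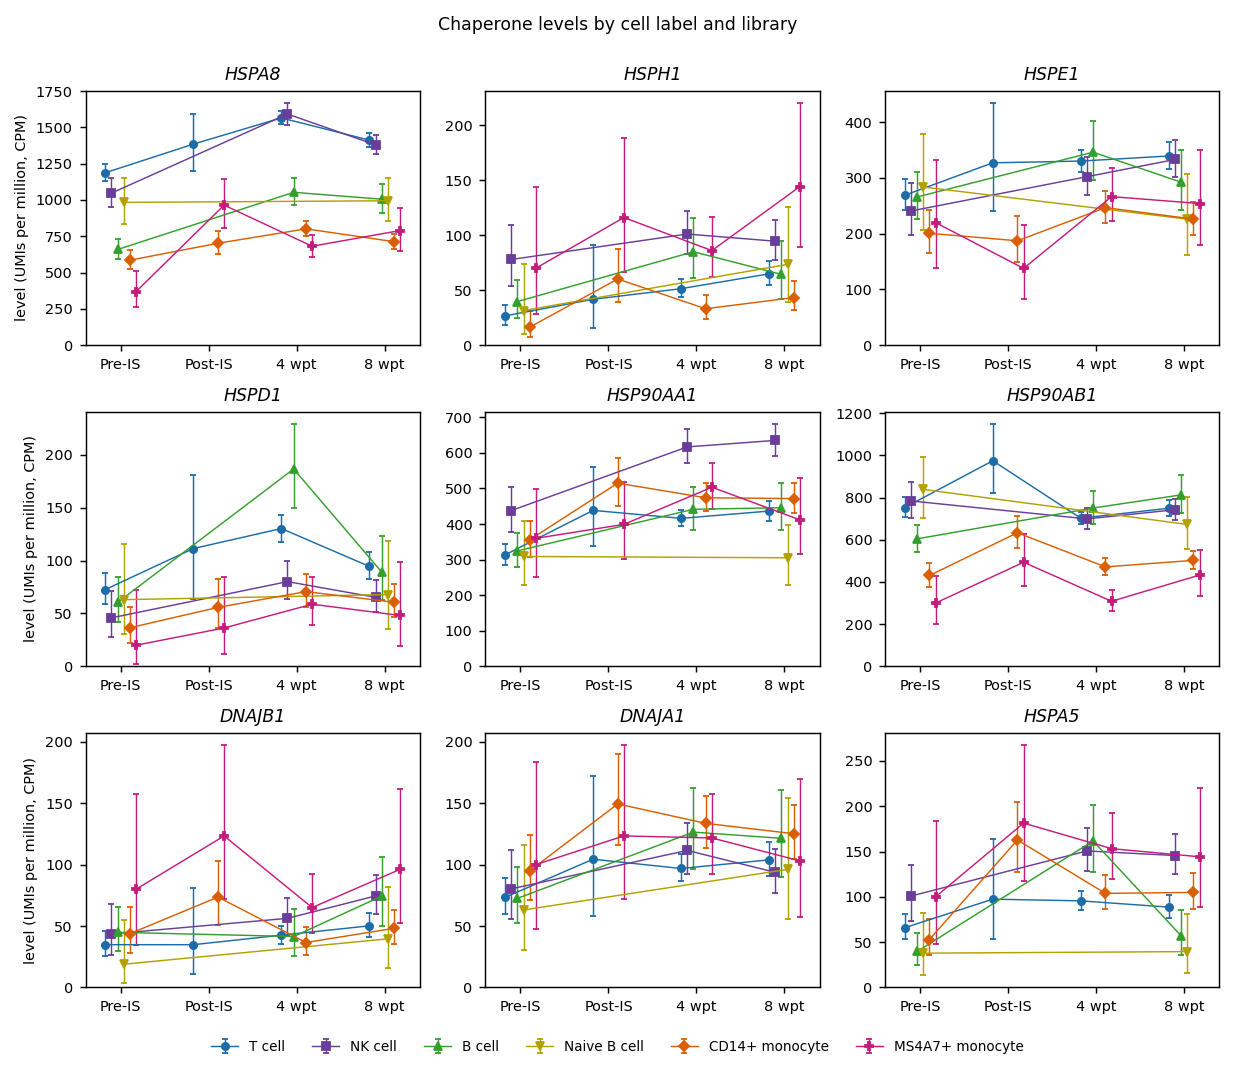
Level of each of the 9 genes (CPM, linear axes that start at 0) by library, for the 6 classes in units of at least 50 cells, with bars for the exact Poisson 95% interval. HSPA8 is lowest in Pre-IS in each class, while HSP90AB1 in T cells is highest in Post-IS at 974 CPM.

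T cells and CD14+ monocytes differed in which chaperones they held. HSPA8 in CD14+ monocytes was 0.493 of its level in T cells in Pre-IS, 0.507 in Post-IS, 0.512 at 4 wpt and 0.505 at 8 wpt. HSP90AB1 was 0.572, 0.650, 0.671 and 0.670 of the T cell level in the same libraries. For these 2 genes the interval of the ratio lay below 1 in each library. The same held for HSPE1, at 0.746, 0.573, 0.747 and 0.667 of the T cell level. HSPD1 was at 0.503, 0.501, 0.542 and 0.642, with an interval that reached 1 in Post-IS only. HSP90AA1 and DNAJA1 were above the T cell level at 4 wpt, at 1.14 (1.03 to 1.26) and 1.38 (1.13 to 1.68), and their intervals included 1 in the other libraries. The 9 genes summed were lower in CD14+ monocytes than in T cells, at 0.650, 0.723, 0.691 and 0.687 in time order.

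NK cells and T cells had near equal sums, with NK over T ratios of 1.02 in Pre-IS, 1.08 at 4 wpt and 1.07 at 8 wpt, but different members. HSP90AA1 was higher in NK cells, at 1.40 (1.17 to 1.66) in Pre-IS, 1.48 (1.35 to 1.63) at 4 wpt and 1.46 (1.32 to 1.60) at 8 wpt. HSPA5 was higher too, at 1.53 (1.04 to 2.22), 1.58 (1.29 to 1.92) and 1.64 (1.33 to 2.02). HSPD1 was lower in NK cells, at 0.631 (0.370 to 1.03), 0.615 (0.480 to 0.779) and 0.691 (0.526 to 0.900), the first of these intervals reaching past 1. NK cells held more of the inducible HSP90 and of the ER HSP70, and T cells more of mitochondrial HSP60, in each of the 3 libraries. HSPH1 in NK cells over T cells was 2.92 (1.77 to 4.80), 1.97 (1.52 to 2.53) and 1.46 (1.13 to 1.88), a gap that was smaller at 8 wpt.

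B cells held less HSPA8 than T cells, at 0.555 (0.495 to 0.621) in Pre-IS, 0.673 (0.613 to 0.737) at 4 wpt and 0.712 (0.641 to 0.790) at 8 wpt. Naive B cells had a sum above that of B cells in Pre-IS, at 1.25 (1.11 to 1.39), and below it at 8 wpt, at 0.849 (0.760 to 0.947). Within the monocytes, MS4A7+ cells had more HSPH1 than CD14+ cells, at 4.26 (1.35 to 12.9) in Pre-IS, 1.93 (0.971 to 3.71) in Post-IS, 2.59 (1.63 to 4.13) at 4 wpt and 3.33 (1.88 to 5.71) at 8 wpt. DNAJB1 was likewise 1.83, 1.68, 1.78 and 2.0 of the CD14+ level. The lower bound for DNAJB1 was above 1 at 4 and 8 wpt, and that for HSPH1 in each library but Post-IS. Dendritic cells, 23 to 30 in the 3 larger libraries, had summed levels of 2057 CPM in Pre-IS, 2645 at 4 wpt and 2301 at 8 wpt. Another 12 cells were labelled platelets, all at 4 wpt, with 1842 CPM.

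Across times, the sum of the 9 genes was modestly above Pre-IS in each later library, in every class compared except naive B cells. In T cells the sum was 2796 CPM in Pre-IS, 3514 in Post-IS, 3429.5 at 4 wpt and 3339 at 8 wpt. In NK cells it was 2858 CPM in Pre-IS, 3709 at 4 wpt and 3563 at 8 wpt, and in B cells 2111, 3191 and 2962 CPM. In CD14+ monocytes it was 1817 CPM in Pre-IS, 2539 in Post-IS, 2371 at 4 wpt and 2295 at 8 wpt. The MS4A7+ monocyte sums were 1619, 2575, 2244 and 2424 CPM in the same order. The intervals of the later libraries lay above that of Pre-IS in each of these 5 classes. Every comparison with Pre-IS rests on the same Pre-IS library, so the classes and times below are given side by side and are not repeats of one another. The sum is carried by HSPA8, HSP90AB1 and HSP90AA1, which give most UMIs.

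**Figure D2:**
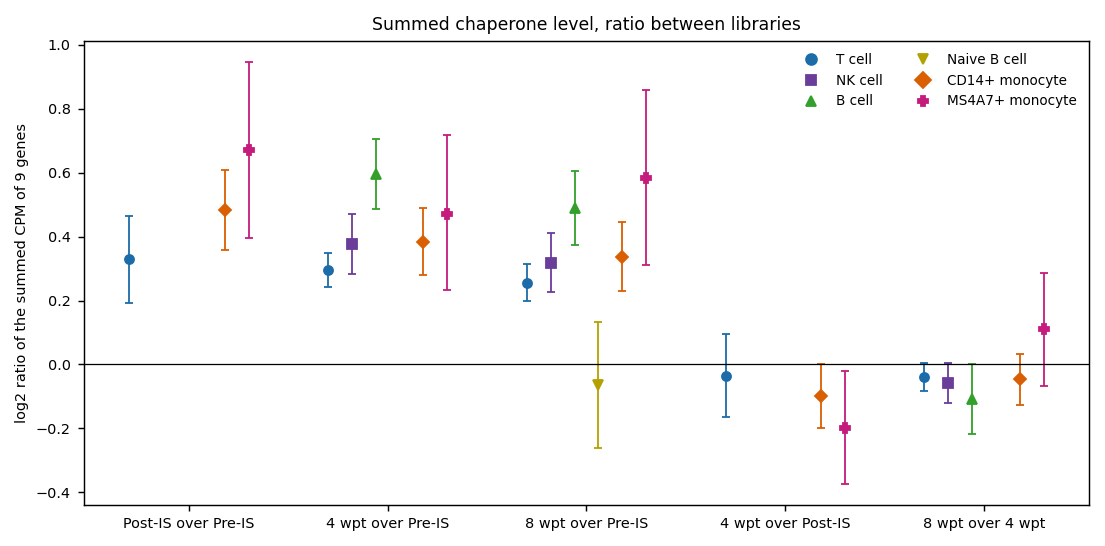
Ratio of the summed level of the 9 genes between libraries (log2 scale, 0 is no difference) by class, with exact 95% intervals that cover counting error only. Points lie above 0 against Pre-IS except for naive B cells, at -0.064, and close to 0 between 8 wpt and 4 wpt.

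After immunosuppression and ahead of the transplant, chaperones were higher in monocytes than in Pre-IS, with HSPA5 and HSPH1 furthest apart in CD14+ cells. The summed Post-IS over Pre-IS ratio was 1.40 (1.28 to 1.52) in CD14+ monocytes, 1.59 (1.32 to 1.93) in MS4A7+ monocytes and 1.26 (1.14 to 1.38) in T cells. In CD14+ monocytes 5 of 9 genes stood at least 1.5-fold higher and 0 stood lower, beside 29.6% of all genes tested that were past 1.5-fold in either direction. Tested genes are those with at least 20 UMIs over both libraries. Of them, 16.6% were higher and 13.0% lower. Among genes with at least 200 UMIs, 12.7% of all genes and 0 of the 9 were past the fold. The 5 higher genes were HSPA5 at 3.08 (1.98 to 4.91), HSPH1 at 3.67 (1.67 to 8.86), DNAJB1 at 1.68 (0.963 to 2.97), DNAJA1 at 1.57 (1.08 to 2.31) and HSPD1 at 1.53 (0.814 to 2.90). The HSPD1 and DNAJB1 intervals include 1, and the HSPD1 ratio was 0.788 with cells thinned to 1000 UMIs. Thinning leaves out shallower cells and kept 187 of 329 Post-IS and 221 of 256 Pre-IS CD14+ monocytes, so it changes both depth and the cells used. The constitutive HSP90AB1 was at 1.47 (1.23 to 1.75) and HSP90AA1 at 1.45 (1.19 to 1.76), while HSPE1 was at 0.933 (0.694 to 1.25). The median log2 ratio was 0.60 over the 9 genes, against 0.038 over all genes tested.

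Other measures moved with these CD14+ monocyte values. All 7 early response genes examined were higher in Post-IS CD14+ monocytes, among them JUN, a subunit of AP-1, at 682 CPM in Post-IS against 96.7 in Pre-IS. FOS, its partner, was at 4741 against 1961 CPM. EGR1, an immediate early transcription factor, was at 421 against 91.2 CPM. At 4 and 8 wpt all 7 were below Pre-IS in the same class, with JUN at 38.3 and 44.3 CPM, whereas the chaperone sum stayed above Pre-IS. The 4 platelet markers summed to 21.9 CPM in Pre-IS, where 3 of them were at 0, 236 in Post-IS, 21.3 at 4 wpt with 2 at 0, and 182 at 8 wpt. The ribosomal protein share of CD14+ monocytes was 16.8%, 14.1%, 17.1% and 17.2% in time order. The part of the early response genes and of platelet RNA in the chaperone values was not tested. With ribosomal, mitochondrial, hemoglobin and immunoglobulin genes left out of the totals, every summed ratio stayed inside its interval.

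In MS4A7+ monocytes 5 of the 8 genes tested were at least 1.5-fold higher in Post-IS and 1 lower, beside 31.4% of all genes tested. HSPA8 led with 965 CPM in Post-IS, against 369.8 CPM in Pre-IS, a ratio of 2.61 (1.80 to 3.86). HSP90AB1, at 1.64 (1.06 to 2.62), was the other gene past the fold whose interval lies above 1. For HSPA5, HSPH1 and DNAJB1, at 1.81, 1.66 and 1.54, the intervals include 1, and HSPA5 was at 0.955 with cells thinned to 1000 UMIs, where 2 genes in all were past the fold. HSPE1 was the lower one, at 0.627 (0.321 to 1.21). HSPD1 had too few UMIs to be counted. The 4 platelet markers summed to 116 CPM in Post-IS, with 1 at 0, and were all at 0 in Pre-IS. Of the early response genes, 4 had enough UMIs, and 2 of them were at least 1.5-fold higher, with a median log2 ratio of 0.68. The mitochondrial share was 2.29% in Post-IS, against 1.5% in Pre-IS. The part of these in the chaperone values was not tested. With the CD14+ and MS4A7+ labels pooled, the HSPA8 ratio was 1.38. The median log2 ratio was 0.63 over the genes tested here, against 0.023 over all genes tested.

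In T cells 2 of 9 genes were at least 1.5-fold higher in Post-IS and 0 lower, beside 42.8% of all genes tested. Of all genes tested, 14.4% were higher and 28.4% lower, and 17.6% of those with at least 200 UMIs were past the fold. The 2 genes were HSPH1, at 1.57 (0.539 to 3.75), and HSPD1, at 1.53 (0.843 to 2.62), with intervals that include 1. The better counted HSP90AA1 was at 1.40 (1.06 to 1.83), HSP90AB1 at 1.29 (1.08 to 1.55) and HSPA8 at 1.17 (1.00 to 1.35). The Post-IS library has 115 T cells, in which 1 of the 5 CD14+ monocyte markers was at 0 and their sum was 139 CPM, against 24.4 CPM in Pre-IS. The median log2 ratio was 0.49 over the 9 genes, against -0.0011 over all genes tested.

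**Figure D3:**
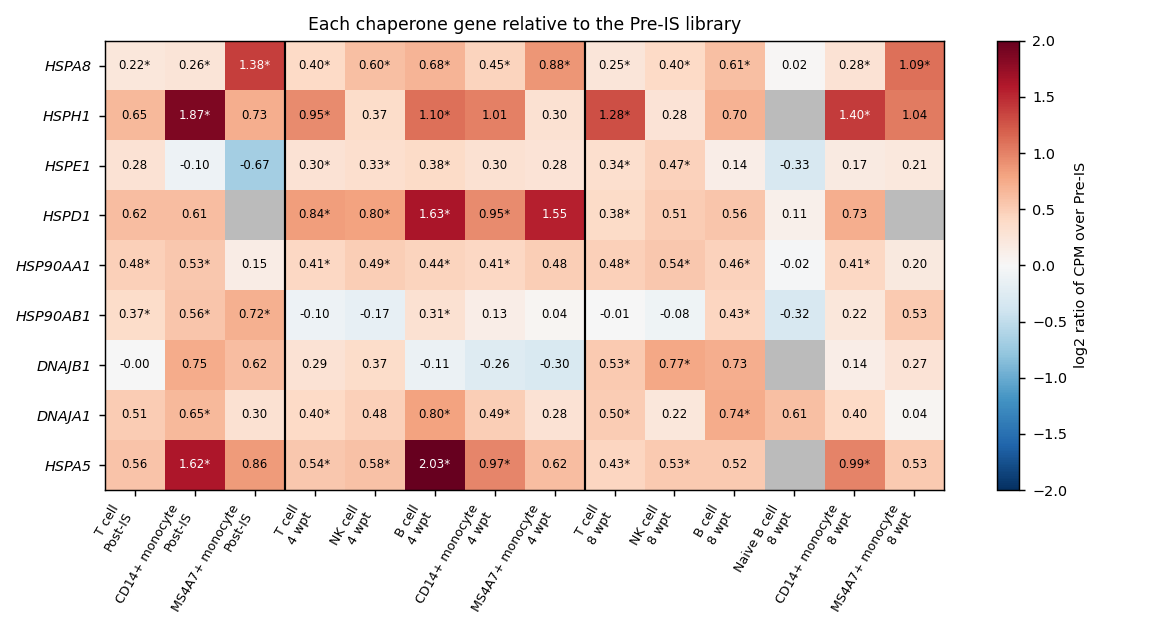
Log2 ratio of each gene's level to Pre-IS, by gene (down) and by class and later library (across); a star marks an exact 95% interval that excludes 0 and grey marks fewer than 20 UMIs. HSPA5 in CD14+ monocytes is at 1.62 in Post-IS, and HSP90AB1 in T cells is slightly below 0 at 4 wpt, without a star.

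At 4 wpt the lymphocytes had more HSPA8, HSP90AA1 and HSPD1 than in Pre-IS, while HSP90AB1 lay slightly below Pre-IS in T and NK cells with intervals that include 1. The summed 4 wpt over Pre-IS ratio was 1.23 (1.18 to 1.27) in T cells and 1.3 (1.22 to 1.38) in NK cells. In T cells HSPA8 was at 1.32 (1.25 to 1.40), HSP90AA1 at 1.33 (1.19 to 1.48), HSPD1 at 1.79 (1.44 to 2.26) and HSPH1 at 1.93 (1.34 to 2.85), against HSP90AB1 at 0.933 (0.866 to 1.01). With cells weighted equally, HSP90AB1 in T cells was at 1.01. HSPD1 and HSPH1 made the 2 of 9 genes that were past 1.5-fold, none of them lower, beside 20.5% of all genes tested. In NK cells HSPA8 was at 1.52 (1.37 to 1.69) and HSPD1 at 1.75 (1.06 to 3.0). They were the 2 of 9 genes past 1.5-fold, beside 26.8% of all genes tested. HSP90AB1 in NK cells was at 0.891 (0.783 to 1.02). The medians over the 9 genes were 0.40 in T cells and 0.46 in NK cells on the log2 scale, against 0.038 and 0.041 over all genes tested.

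In CD14+ monocytes the 4 wpt over Pre-IS sum was 1.3 (1.21 to 1.40), and 3 of 9 genes were at least 1.5-fold higher with none lower, beside 25.7% of all genes tested. They were HSPA5 at 1.96 (1.3 to 3.05), HSPD1 at 1.94 (1.18 to 3.33) and HSPH1 at 2.02 (0.963 to 4.74). With cells thinned to 1000 UMIs, HSPD1 was at 1.04 and 0 of 9 genes were past the fold. A single CD14+ monocyte held 63 of the 557 HSP90AA1 UMIs. HSP90AA1 was at 1.33 (1.13 to 1.58) with that cell and 1.19 (1.01 to 1.41) without it, and the sum 1.25 (1.17 to 1.35) without it. The 3 red cell markers summed to 1868 CPM in CD14+ monocytes at 4 wpt, against 544 CPM in Pre-IS, and to 596 against 172 CPM in NK cells. The part of red cell RNA in the chaperone values was not tested. In MS4A7+ monocytes the sum was 1.39 (1.17 to 1.65), and 3 of 9 genes were past 1.5-fold, beside 36.9% of all genes tested. Of these, HSPA8 at 1.84 (1.31 to 2.67) has an interval above 1, while HSPD1, on 2 UMIs in Pre-IS, and HSPA5 at 1.53 (0.787 to 3.33) do not. The medians were 0.45 in CD14+ and 0.25 in MS4A7+ monocytes, against -0.033 and -0.022 over all genes tested.

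B cells had the highest 4 wpt over Pre-IS sum of the 5 classes, at 1.51 (1.40 to 1.63), and part of it came from 1 cell. Of 9 genes, 5 were at least 1.5-fold higher and none lower, beside 28.2% of all genes tested. HSPA5 stood at 162 CPM (128 to 202) at 4 wpt, against 39.7 CPM (25.2 to 59.6) in Pre-IS, a ratio of 4.07 (2.53 to 6.79). HSPD1 was at 3.09 (2.07 to 4.70), HSPH1 at 2.14 (1.25 to 3.74), DNAJA1 at 1.74 (1.16 to 2.65) and HSPA8 at 1.60 (1.40 to 1.83). With cells thinned to 1000 UMIs, HSPH1 was at 1.13. One B cell of 18607 UMIs, where the class median was 3890, held 29 of the 78 HSPA5 UMIs and 21 of the 90 HSPD1 UMIs. That cell also held 34 UMIs of JCHAIN, the joining chain of secreted IgM and IgA, 4 of XBP1, a transcription factor of secretory cells, 3 of MZB1, an ER protein of antibody-secreting cells, and 3 of the proliferation marker MKI67. Without it HSPA5 stood at 106 CPM, a ratio of 2.66 (1.59 to 4.58), and HSPD1 at a ratio of 2.46 (1.62 to 3.81). Another B cell at 4 wpt, of 8137 UMIs, held 8 of the 49 HSPA5 UMIs left, whereas the most in a Pre-IS B cell was 2. With possible doublets left out, HSPA5 was at 2.28. That setting drops cells above percentile 98 of depth in their class, as well as cells with markers of other lineages. The cell of 18607 UMIs is dropped by its depth, so the 2 values are not separate checks. The sum without the 1 cell was 1.44 (1.33 to 1.56). Other markers of the class differed as well. The 5 B cell markers summed to 4099 CPM at 4 wpt, against 6799 CPM in Pre-IS, and the 4 proliferation markers to 240.4 CPM, against 82.8 CPM. Their part in these ratios was not tested. The median log2 ratio with all cells was 0.67, against 0.036 over all genes tested.

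The wider set of ER chaperones and unfolded protein response genes was counted in B cells at 4 wpt against Pre-IS. Of 17 genes tested from the list of 19, 6 reached 1.5-fold above Pre-IS and 0 were that far below it, beside 28.2% of all genes past the fold in either direction. The median log2 ratio was 0.28. Without the 1 cell, 5 of 17 were higher and 1 was lower, with a median of 0.14. With or without that cell, the share of genes past the fold in either direction was not far from that of all genes. The list went mostly one way, whereas 15.8% of all genes were higher and 12.4% lower. With all cells, intervals lay above 1 for 7 of the 17 and below 1 for 0, against 9.03% and 7.52% of all genes. HSP90B1, the HSP90 of the ER, was at 2.35 (1.82 to 3.06) without the cell, and the protein disulfide isomerases PDIA4 and PDIA6 were at 2.23 (1.38 to 3.68) and 2.08 (1.22 to 3.61). PDIA6 was at 3.1 with all cells, 22 of its 62 UMIs lying in that cell. The lectin chaperone CALR, at 0.916 (0.721 to 1.16), and the stress factor ATF4, at 0.813 (0.610 to 1.08), had intervals that include 1.

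**Figure D4:**
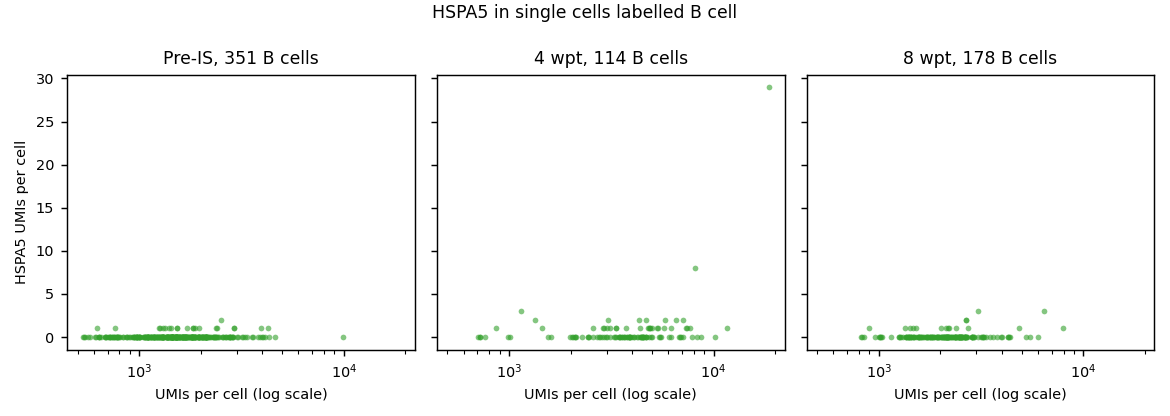
HSPA5 UMIs in each cell labelled B cell (vertical, linear) against the cell's total UMIs (horizontal, log scale), in the Pre-IS, 4 wpt and 8 wpt libraries; each point is 1 cell. The cell with 29 HSPA5 UMIs stands alone at the upper right of the 4 wpt panel, at 18607 UMIs.

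At 8 wpt the sums remained above Pre-IS, while HSP90AB1 lay close to its Pre-IS level in T and NK cells. The summed ratio was 1.19 (1.15 to 1.24) in T cells, 1.25 (1.17 to 1.33) in NK cells and 1.40 (1.29 to 1.52) in B cells. HSPA8, constitutive as well, stood at 1412 CPM in T cells and 1379.5 CPM in NK cells, against 1187 and 1047 CPM in Pre-IS. In T cells HSPH1 was at 64.9 CPM at 8 wpt, against 26.7 CPM in Pre-IS, a ratio of 2.43 (1.68 to 3.61). It was the 1 of 9 genes past 1.5-fold, beside 14.6% of all genes tested. HSP90AA1 was at 1.39 (1.24 to 1.56), DNAJB1 at 1.44 (1.02 to 2.07) and HSP90AB1 at 0.995 (0.920 to 1.08) in T cells. In NK cells the 1 gene of 9 past 1.5-fold was DNAJB1, at 1.71 (1.03 to 2.97), beside 22.3% of all genes tested. HSP90AA1 was at 1.45 (1.24 to 1.71) and HSP90AB1 at 0.947 (0.835 to 1.08) there. In B cells 4 of 9 genes were past 1.5-fold and none lower, beside 23.1% of all genes tested. HSPA8, at 1.53 (1.32 to 1.76), and DNAJA1, at 1.67 (1.09 to 2.59), have intervals above 1, and HSPH1 and DNAJB1, at 1.62 and 1.66, do not. In the B cells of 8 wpt the 3 red cell markers summed to 1441 CPM, against 239.9 CPM in Pre-IS, with 1 at 0 in each. Platelet markers summed to 168 CPM at 8 wpt, against 58.7 CPM in Pre-IS. The part of both in the chaperone values was not tested. Medians were 0.42, 0.46 and 0.56 in T, NK and B cells, against 0.043, 0.055 and 0.0096 over all genes tested.

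Naive B cells were the class without a higher sum at 8 wpt, at 2515 CPM, against 2629 CPM in Pre-IS, a ratio of 0.957 (0.835 to 1.10). Of the 6 genes with enough UMIs, 1 was at least 1.5-fold higher and none lower, beside 23.1% of all genes tested. That gene was DNAJA1, at 1.52 (0.659 to 3.72). HSPA8 was at 1.01 (0.811 to 1.26), HSP90AA1 at 0.988 (0.659 to 1.49) and HSP90AB1 at 0.802 (0.621 to 1.04). The interval of the sum in naive B cells lies below that in B cells, and the difference itself was not tested. With both B cell labels pooled the summed ratio was 1.27.

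In CD14+ monocytes the 8 wpt over Pre-IS sum was 1.26 (1.17 to 1.36), and 3 of 9 genes were at least 1.5-fold higher with none lower, beside 21.3% of all genes tested. They were HSPH1 at 2.64 (1.27 to 6.14), HSPA5 at 1.98 (1.31 to 3.1) and HSPD1 at 1.66 (0.991 to 2.90). In MS4A7+ monocytes the sum was 1.5 (1.24 to 1.81), and 2 of 8 genes were past 1.5-fold with none lower, beside 29.8% of all genes tested. These were HSPA8 at 2.14 (1.46 to 3.18) and HSPH1 at 2.06 (0.844 to 5.74). With edgeR's TMM scaling 4 genes were past the fold, and with the monocyte labels pooled HSPA8 was at 1.31. Medians were 0.39 in CD14+ and 0.36 in MS4A7+ monocytes, against 0.012 and -0.046 over all genes tested.

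Between 4 wpt and Post-IS, the T cell sum differed little. In monocytes some chaperones were lower at 4 wpt and others higher. The shares of chaperones past the fold in either direction in monocytes were not far from those of all genes. In CD14+ monocytes 14.1% of all genes were higher and 15.4% lower, whereas the 3 chaperones past the fold were all lower. The summed 4 wpt over Post-IS ratio was 0.976 (0.893 to 1.07) in T cells, where 0 of 9 genes were past 1.5-fold, beside 47.1% of all genes tested. HSP90AB1 in T cells stood at 702 CPM at 4 wpt, against 974 CPM in Post-IS, a ratio of 0.721 (0.607 to 0.861). In CD14+ monocytes the sum was 0.934 (0.871 to 1.00), and 3 of 9 genes were at least 1.5-fold lower with none higher, beside 29.5% of all genes tested. DNAJB1 was at 0.497 (0.309 to 0.808), HSPH1 at 0.551 (0.329 to 0.936) and HSPA5 at 0.638 (0.473 to 0.864), while HSPE1 was at 1.32 (1.03 to 1.70). With cells thinned to 1000 UMIs the DNAJB1 ratio was 0.289. Without the 1 CD14+ monocyte of the 4 wpt library that held 63 HSP90AA1 UMIs, the sum was 0.898 (0.837 to 0.963) and HSP90AA1 0.821 (0.701 to 0.965). In MS4A7+ monocytes the sum was 0.872 (0.772 to 0.986), with 2 of 9 genes higher and 2 lower, beside 34.2% of all genes tested. HSPE1 was at 1.93 (1.19 to 3.32) and HSP90AB1 at 0.625 (0.466 to 0.846). HSPD1 and DNAJB1, the others past the fold, have intervals that include 1. Medians were -0.00079 in T cells, -0.17 in CD14+ and -0.26 in MS4A7+ monocytes, against 0.017, -0.054 and -0.024 over all genes tested.

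Between 8 wpt and 4 wpt the summed levels were close. The ratio was 0.974 (0.945 to 1.00) in T cells, with 0 of 9 genes past 1.5-fold, beside 15.4% of all genes tested. It was 0.961 (0.920 to 1.00) in NK cells, with 0 of 9, beside 18.0%. It was 0.968 (0.916 to 1.02) in CD14+ monocytes, also with 0 of 9, beside 19.7%. Small differences were measurable in the class with most UMIs in all: in T cells HSPA8 was at 0.902 (0.863 to 0.944) and HSPD1 at 0.725 (0.611 to 0.858). HSPA8 was likewise at 0.867 (0.809 to 0.928) in NK cells and 0.890 (0.807 to 0.981) in CD14+ monocytes. In B cells the sum was 0.928 (0.860 to 1.00), with 1 of 9 genes higher and 2 lower, beside 24.9%. The lower ones were HSPA5, at 0.352 (0.211 to 0.567), and HSPD1, at 0.478 (0.315 to 0.711). Without the 1 B cell of the 4 wpt library they were at 0.539 (0.314 to 0.902) and 0.60 (0.389 to 0.910). In MS4A7+ monocytes the sum was 1.08 (0.955 to 1.22), with 1 of 9 genes higher and none lower, beside 39.0%. That gene was HSPH1, at 1.68 (0.941 to 2.90), and it was at 0.829 with cells thinned to 1000 UMIs. Medians lay between -0.066 and 0.069 over the 9 genes in the 5 classes, against -0.11 to 0.028 over all genes tested.

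The cells labelled as proliferating NK/T cells, 41 at 4 wpt and 30 at 8 wpt, had more of the inducible HSP90 and of mitochondrial HSP60 than T cells. HSP90AA1 stood at 1057 CPM (947 to 1176) in proliferating cells at 4 wpt, against 416 CPM in T cells and 617 CPM in NK cells. At 8 wpt it stood at 1139 CPM (969.8 to 1330.4), against 436 and 635 CPM. The ratio to T cells was 2.54 (2.25 to 2.87) at 4 wpt and 2.61 (2.20 to 3.09) at 8 wpt. HSPD1 over T cells was 1.88 (1.46 to 2.41) and 2.49 (1.67 to 3.6), and HSPE1 1.5 (1.26 to 1.77) and 1.45 (1.12 to 1.86), at the same times. The constitutive HSP90AB1 was near the T cell level, at 0.919 (0.792 to 1.06) and 1.07 (0.880 to 1.3). The 9 genes summed were at 1.41 (1.33 to 1.48) and 1.41 (1.3 to 1.53).

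The 4 proliferation markers (MKI67, TOP2A, STMN1 and PCNA) summed to 3832 CPM at 4 wpt and 5014 CPM at 8 wpt in these cells, against 198 and 224 CPM in T cells. T and NK cell markers were both present, at 2423 and 2759 CPM at 4 wpt. The NK over T cell ratio of HSP90AA1 was 1.48 at 4 wpt and 1.46 at 8 wpt. The part of the NK and T cell mix of the proliferating class was not tested. The class was deeper, with a median of 6973 UMIs per cell at 4 wpt, against 3626 in T cells, and 3484 against 1810 at 8 wpt. The part of depth in these values was not tested.

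**Figure D5:**
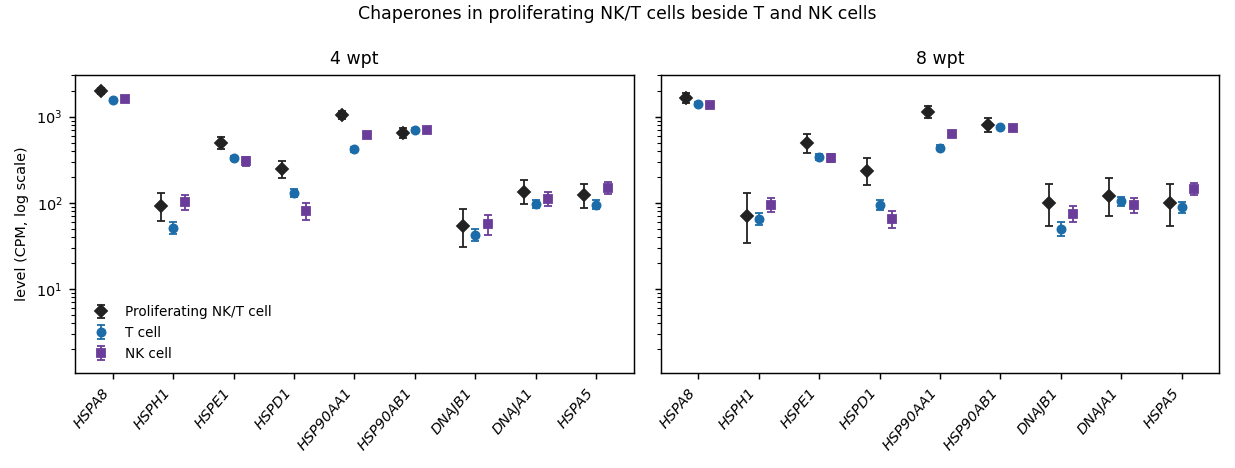
Level of each gene (CPM, log axis) in proliferating NK/T cells, T cells and NK cells at 4 and 8 wpt, with exact Poisson 95% intervals. HSP90AA1 is highest in the proliferating cells at both times, at 1057 and 1139 CPM, whereas HSP90AB1 lies close to T and NK cells.

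The most UMIs of a gene in 1 cell were 63 for HSP90AA1, 33 for HSPA8, 32 for HSP90AB1, 29 for HSPA5 and 21 for HSPD1, against 3 to 5 for DNAJB1, HSPH1 and DNAJA1. With cells thinned to 1000 UMIs, the variance over the mean of UMIs per cell was highest for HSP90AA1 in CD14+ monocytes at 4 wpt, at 1.89, the unit with the 1 cell of 63 UMIs. HSPA8 reached 1.64 in Post-IS MS4A7+ monocytes. Scarce UMIs can hold this ratio near 1, and it was taken in fewer units for the scarcer genes. Its highest value was 1.34 for DNAJA1, 1.29 for HSPD1, 1.23 for HSPH1, 1.11 for HSPA5 and 1.09 for DNAJB1. Over the 20 units, HSPD1 and HSPH1 varied most, 9.33-fold and 8.78-fold between the lowest and the highest unit, and HSP90AA1 least, 2.08-fold. The lowest HSPD1 unit, MS4A7+ monocytes in Pre-IS, rests on 2 UMIs.

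Across the 20 units, which share libraries, depths and cell classes, the members fell loosely into 2 groups by Pearson correlation of log2(CPM + 10). HSPA8, HSP90AB1, HSPD1 and HSPE1, the constitutive and mitochondrial members, went together, with r between 0.50 and 0.78, and 0.73 for HSPD1 with HSPE1. HSPA5, HSP90AA1, DNAJA1, DNAJB1 and HSPH1, most of them stress-inducible, went together with r between 0.34 and 0.74. Between the groups values reached 0.30, for HSPA8 with HSP90AA1, so the split was not sharp. The lowest value was -0.47, for HSP90AB1 with DNAJB1, and the 2 HSP90 genes had 0.02. Among 5154 genes with a symbol, those most like HSPD1 were CCT3 (0.82) and CCT6A (0.80), subunits of the cytosolic chaperonin TRiC, and NAP1L1 (0.80). Those most like HSPH1 were RABGEF1 (0.88), SUPT20H (0.82) and the ER chaperone CALR (0.80). HSP90AA1 was most like SERINC3 (0.79), RAB27A (0.76) and HSPA5 (0.74).

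The other members had these nearest genes. For HSPA8 they were ZBTB38 (0.87), SLC20A1 (0.87) and NDFIP1 (0.86). For HSPE1 they were POLR2C (0.91), TIAL1 (0.87) and EXOSC3 (0.85). For HSP90AB1 they were C11H12orf57 (0.92), ACAP1 (0.90) and LSM2 (0.90), and for HSPA5 LCP1 (0.87), MSN (0.82) and DNAJC13 (0.82). DNAJB1 was nearest to KPNA3 (0.90), ACTR3 (0.87) and CKS2 (0.86), and DNAJA1 to FBXO9 (0.81), MCL1 (0.80) and ATP6 (0.79). The correlations describe 20 units and carry no test.

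Other chaperone genes were read from 6 lists, counted past the same 1.5-fold. In CD14+ monocytes the ER list had 7 of 18 higher and 1 lower, beside 29.6% of all genes past the fold (median log2 ratio 0.36) in Post-IS over Pre-IS. In 4 wpt over Post-IS, 29.5% of all genes were past the fold, 14.1% higher and 15.4% lower. The ER list had 0 of 19 higher and 5 lower there (median log2 ratio -0.39). It had 2 of 19 higher and 0 lower, beside 25.7% of all genes past the fold (median log2 ratio -0.090) in 4 wpt over Pre-IS, where HSPA5 was at 1.96 (1.3 to 3.05). It had 7 of 19 higher and 0 lower, beside 21.3% of all genes past the fold (median log2 ratio 0.33) in 8 wpt over Pre-IS. It had 4 of 19 higher and 0 lower, beside 19.7% of all genes past the fold (median log2 ratio 0.22) in 8 wpt over 4 wpt, where HSPA5 stood at 105 CPM at 8 wpt, against 104 CPM at 4 wpt. The list's median was above 0 against Pre-IS in Post-IS and at 8 wpt, as HSPA5 was, but not at 4 wpt. Some of its genes are named here after their values were seen. In Post-IS over Pre-IS, DNAJB9, a J-domain partner of HSPA5, was at 2.95 (1.46 to 6.35), DNAJC3, another, at 2.09 (1.19 to 3.78), HSP90B1 at 1.74 (1.32 to 2.30) and CALR at 1.59 (1.21 to 2.08). The disulfide isomerase P4HB was lower, at 0.595 (0.393 to 0.888), and ATF4 was at 0.756 (0.60 to 0.95). In T cells the ER list had 2 of 18 higher and 4 lower, beside 42.8% of all genes past the fold (median log2 ratio -0.067) in Post-IS over Pre-IS and 4 of 19 higher and 0 lower, beside 15.4% of all genes past the fold (median log2 ratio 0.20) in 8 wpt over 4 wpt. MANF, an ER stress protein, stood in T cells at 72.1 CPM at 8 wpt, against 34.1 CPM at 4 wpt, a ratio of 2.12 (1.65 to 2.73).

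Of the 27 cytosolic HSP70 and HSP40 genes, 22 were read. They had 2 of 18 higher and 1 lower, beside 20.5% of all genes past the fold (median log2 ratio -0.049) in T cells at 4 wpt over Pre-IS, and 4 of 18 higher and 0 lower, beside 14.6% of all genes past the fold (median log2 ratio 0.10) at 8 wpt over Pre-IS. The medians over all genes tested were 0.038 and 0.043. In CD14+ monocytes they had 2 of 13 higher and 1 lower, beside 29.6% of all genes past the fold (median log2 ratio 0.076) in Post-IS over Pre-IS. The heat-inducible HSPA1A and HSPA1B were not analysed here. Of the rest, HSPA14, an atypical HSP70, stood in MS4A7+ monocytes at 21.0 CPM at 4 wpt, against 87.0 CPM in Post-IS, on 10 and 12 UMIs. The TRiC subunits had 1 of 8 higher and 0 lower, beside 20.5% of all genes past the fold (median log2 ratio 0.21) in T cells at 4 wpt over Pre-IS and 0 of 8 higher and 1 lower, beside 29.6% of all genes past the fold (median log2 ratio 0.14) in CD14+ monocytes in Post-IS over Pre-IS. The mitochondrial chaperones other than HSPD1 and HSPE1 had 0 of 8 higher and 0 lower, beside 20.5% of all genes past the fold (median log2 ratio -0.051) in T cells at 4 wpt over Pre-IS, where HSPD1 was at 1.79. Of the 4 heat shock factor genes, 3 were tested in that comparison, with 0 higher and 0 lower, beside 20.5% of all genes past the fold (median log2 ratio -0.25).

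The list of HSP90 cochaperones had 2 of 11 higher and 1 lower, beside 20.5% of all genes past the fold (median log2 ratio -0.16) in T cells at 4 wpt over Pre-IS and 2 of 9 higher and 2 lower, beside 29.6% of all genes past the fold (median log2 ratio 0.22) in CD14+ monocytes in Post-IS over Pre-IS. One gene of it stood apart. FKBP5, an immunophilin of the HSP90 and steroid receptor complex and a known glucocorticoid target, stood in MS4A7+ monocytes at 49.98 CPM in Pre-IS, 341 in Post-IS, 245 at 4 wpt and 27.5 at 8 wpt. The Pre-IS and 8 wpt levels rest on 5 and 4 UMIs. The ratio was 6.82 (2.72 to 22.0) in Post-IS over Pre-IS and 0.112 (0.0300 to 0.294) in 8 wpt over 4 wpt. In T cells FKBP5 was at 81.5 CPM at 8 wpt, against 193 CPM at 4 wpt, a ratio of 0.422 (0.356 to 0.499), and in CD14+ monocytes at 0.474 (0.351 to 0.634). The summed level of the 9 chaperones was close at the same times: in T cells it was 3339 CPM at 8 wpt, against 3429.5 CPM at 4 wpt.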

How the data were processed

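Single-cell RNA was read as counts of unique molecular identifiers (UMIs), whole numbers per gene and cell in the tables that the authors deposited, with a cell type label for each barcode in a second deposited table. The libraries were made with a droplet 5' kit and sequenced as 150 bp pairs, per the labels' protocols. The submitters' processing notes name Mmul_10 as genome build, and Seurat 3.2.3 and Cell Ranger 3.1.0 as tools, with no role or order. How cells, genes and possible doublets were filtered ahead of deposit, and how labels were made, is not given in the sources used here. Of 15354 gene rows, 2559 carry an identifier, of which 440 were named through the RefSeq table of assembly T2T-MMU8v2.0. Columns of no sample numbered 0.

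UMIs were summed per cell label and library and divided by the class total, giving CPM with exact Poisson 95% intervals. Ratios between libraries have exact conditional binomial 95% intervals. Both cover counting error only. A class was compared when each of the 2 libraries held at least 50 of its cells, giving 22 comparisons, and a gene was counted when it had at least 20 UMIs over both libraries and differed at least 1.5-fold. Library totals were 3356133 UMIs in Pre-IS, 791030 in Post-IS, 6910432 at 4 wpt and 5482144 at 8 wpt. A count of 0 in a class allows up to 3 UMIs, which is between 0.946 CPM in T cells at 4 wpt and 30.0 CPM in MS4A7+ monocytes in Pre-IS. Doublets were left in, and were left out in one alternative. With 1 library per group no test was made. The ratio and its interval were checked on simulated Poisson counts of whole classes, the model that the interval assumes. The simulation held no single cells and no spread between libraries. It therefore could not show how the intervals fare where UMIs sit together in few cells.

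All 9 genes are described. From the other lists, up to 3 higher and 3 lower genes per comparison in T cells and monocytes were to be named, where the interval bound nearest to 1 lay beyond 1.5-fold, and further genes were named after their values were seen. For each of the 9, the 3 genes with the highest correlation are given. The genes, lists and markers were chosen with earlier results of these data known. Alternatives were other scalings (edgeR 4.0.16 TMM factors and median of ratios), equal weight of cells, thinning to 1000 UMIs, no possible doublets, other class totals, pooled labels, other minimums and a fold of 2. Python 3.11.15 with numpy 2.4.6, scipy 1.17.1, pandas 2.3.3 and matplotlib 3.10.9, and R 4.3.3, were used.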

Additional observations from a re-analysis of the deposited data

Results flagged for a closer look

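Besides the row of HSPE1 itself, 2 rows that carry only an identifier are named HSPE1 by the RefSeq table, and they were kept out of every HSPE1 value. They held 30 UMIs at 4 wpt, or 4.34 CPM (2.93 to 6.20) of the whole library, and 16 UMIs at 8 wpt, or 2.92 CPM (1.67 to 4.74). The Pre-IS library had 8 UMIs, or 2.38 CPM (1.03 to 4.70), and the Post-IS library 1 UMI. The 4 wpt and 8 wpt values stand here because they lie above the limit of 3 UMIs that a count of 0 allows and above the Pre-IS level. No comparison used these rows. The intervals of the 4 wpt and 8 wpt libraries overlap that of Pre-IS.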

How the results depend on the processing

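No paired analysis was possible because each group has 1 library, and for the same reason no replicate could be left out. Of 168 alternative values of the summed ratio over 22 comparisons, 161 stayed within the counting interval and 7 moved, with 0 called values reversed. With cells thinned to 1000 UMIs the log2 ratio was -0.32 for CD14+ monocytes in 4 wpt over Post-IS (-0.099 with all UMIs) and 0.25 in 4 wpt over Pre-IS (0.38), 0.033 in CD14+ monocytes in 8 wpt over 4 wpt (-0.047), and -0.16 in NK cells in 8 wpt over 4 wpt (-0.058). With labels pooled it was 0.35 in 8 wpt over Pre-IS for B cells (0.49) and for naive B cells (-0.064). With cells weighted equally it was 0.0039 in B cells in 8 wpt over 4 wpt (-0.11). Of the single gene ratios, 1441 alternative values stayed, 28 moved and 3 turned round, all 3 with thinned cells: HSPD1 in CD14+ monocytes at -0.34 and HSPA5 in MS4A7+ monocytes at -0.067 in Post-IS over Pre-IS, and HSPH1 in MS4A7+ monocytes at -0.27 in 8 wpt over 4 wpt. Thinning left 42 of 75 Pre-IS and 55 of 131 Post-IS MS4A7+ monocytes, and the cause was not tested elsewhere.

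Counts of genes past the fold were small and moved by more than 1.5 times in many settings. With a fold of 2 they moved in 15 comparisons, to values between 0 and 3, and with a minimum of 200 UMIs in 18, to 0 or 1, since fewer genes then qualify. With thinned cells 12 counts moved, to between 0 and 5, the 5 being MS4A7+ monocytes in 4 wpt over Pre-IS (3 with all UMIs). With TMM 3 moved (1, 4 and 2) and with median of ratios 4 (1, 1, 4 and 3), mostly in MS4A7+ monocytes. Without possible doublets 4 moved (3, 1, 0 and 0), with labels pooled 3 (2, 3 and 0), with equal weight 2 (0 and 1), with no minimum 1 (3) and with other totals 1 (2). Leaving out the cell with most UMIs of the 9 genes, a setting chosen after seeing the data, moved 2 counts (0 and 4).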
